A study of Mus musculus with 6 samples.

Results

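The circadian clock genes described here are 10 of the 47719 gene identifiers listed for each mouse, and were taken by their gene symbols. They are the activators Arntl, Clock and Npas2, the repressors Per1, Per2, Per3 and Cry1, the nuclear receptors Nr1d1 and Nr1d2, and the output gene Dbp. All 10 passed the filter used for testing, a mean of at least 1 FPKM over the mice, as did 13818 genes in all. FPKM are fragments scaled by the exon length of the gene and by the size of the library, so levels are per length and can be set beside each other between genes.

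RNA was sequenced from the prostates of 6 mice of strain B6.129S4-Trp53tm3.1Tyj/J, which carries the R270H mutation in the DNA binding domain of p53. Wildtype mice 39 and 41 (Trp53+/+) had 0 mutant alleles, heterozygous mice 37 and 40 had 1 and homozygous mice 47 and 49 had 2, where the numbers are those of the animals. Every prostate was taken 6 h after the animal, then close to 3 months of age, had been irradiated over the whole body with 5 Gy, and no unirradiated prostate is compared here. The labels name no promoter or Cre driver for the mutation, and no litter, cage, hour of dissection or light schedule.

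The mammalian clock is a feedback loop of transcription. CLOCK or NPAS2 pairs with ARNTL (also called BMAL1) and switches on the Per and Cry genes, Nr1d1, Nr1d2 and Dbp; PER and CRY proteins then block the pair, and NR1D1 and NR1D2 repress Arntl. In peripheral tissues of mice kept in light and dark, Nr1d1 and Dbp transcripts peak during the light phase, those of the Per genes around dusk, Cry1 late in the night and Arntl around dawn, so the activators and the output genes run in opposite directions over the day.

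The question asked of these genes was whether the prostates appear to have been taken at different phases of the clock, between genotypes or within them. The prostates of the heterozygous pair differed most in these genes, by the median size of the difference and by the count of members at least 1.5-fold apart. Mouse 37 held less of all 3 activators and of Cry1, and more of the other 6 genes, than mouse 40, and the largest gap was in Dbp, at 32.5 against 13.5 FPKM. No clock gene passed the adjusted test between any pair of genotypes, where 0% to 0.384% of all tested genes did. For each of the 10 genes the largest difference within a genotype exceeded the largest difference between genotype means. The same held for 61.1% of all tested genes, and the comparison leans this way because single mice vary more than means of 2 mice.

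The clock genes are regulated in part through short DNA elements close to their start sites, and the promoters that hold an E-box, its variant or a D-box are shown, because they are the elements through which the activator pairs and DBP act. Promoters of 300 bases (250 before the start and 50 after) were matched by symbol to RefSeq on GRCm38.p6 for 9 members, with 13 promoters in all. Searched on both strands were the E-box CACGTG and its variant CACGTT, both bound by the activator pairs, the D-box (TTATGTAA or TTACGTAA), bound by DBP, and AGGTCA, the core of the element bound by NR1D1 and the ROR receptors. The 250 bases before the start are printed 5′ to 3′ along the strand of the gene, and the capitals mark the matches to these motifs.
Per1 (chr11:69098699-69098948, plus strand): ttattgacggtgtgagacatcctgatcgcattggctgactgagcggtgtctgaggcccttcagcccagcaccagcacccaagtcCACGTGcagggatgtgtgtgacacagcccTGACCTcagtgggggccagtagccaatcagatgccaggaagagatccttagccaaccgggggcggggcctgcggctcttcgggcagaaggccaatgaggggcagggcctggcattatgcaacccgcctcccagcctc
Per3 (chr4:151044666-151044915, minus strand): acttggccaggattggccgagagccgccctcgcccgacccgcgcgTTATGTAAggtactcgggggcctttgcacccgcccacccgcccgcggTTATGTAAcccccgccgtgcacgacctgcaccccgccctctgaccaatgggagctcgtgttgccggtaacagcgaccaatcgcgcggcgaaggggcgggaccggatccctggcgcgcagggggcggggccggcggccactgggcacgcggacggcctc
Cry1 (chr10:85185055-85185304, minus strand): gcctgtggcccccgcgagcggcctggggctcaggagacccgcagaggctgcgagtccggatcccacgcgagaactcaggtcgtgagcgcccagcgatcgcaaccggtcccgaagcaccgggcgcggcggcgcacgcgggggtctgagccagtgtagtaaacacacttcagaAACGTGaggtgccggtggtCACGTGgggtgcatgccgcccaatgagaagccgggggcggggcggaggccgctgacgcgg
Nr1d1 (chr11:98775378-98775627, minus strand): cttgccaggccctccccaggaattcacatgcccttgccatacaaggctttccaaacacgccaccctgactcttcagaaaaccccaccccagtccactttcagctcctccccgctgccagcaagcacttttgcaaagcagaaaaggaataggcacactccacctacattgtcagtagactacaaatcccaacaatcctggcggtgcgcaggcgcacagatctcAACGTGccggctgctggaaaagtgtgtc

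In the printed Per1 promoter the E-box begins 166 bases before the start. The AGGTCA core, which reads TGACCT on this strand, begins 137 bases before that start. A further Per1 promoter, from chr11:69099902, held no match. Per3 holds a pair of D-boxes, 205 and 158 bases before the start. In Cry1 the E-box begins 60 bases before the start and the CACGTT variant, read as AACGTG, 79 bases before it. The variant in Nr1d1 lies 28 bases before the start. Over all 32851 mouse promoters of this length in the table, 7.15% held the E-box, 4.68% the variant, 1.06% a D-box and 16.3% the AGGTCA core. The core was also found in 1 promoter each of Arntl (32 bases after the start), Clock (119 before) and Nr1d2 (77 before), while no match lay in the windows of Dbp and Npas2. A match describes letters in this window and not a bound site.

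The libraries were compared before the clock genes were read. FPKM summed to between 518671 and 636407 per mouse, 13452 to 13827 genes reached 1 FPKM, and the number of fragments relative to mouse 39, estimated from the spacing of the lowest values, ran from 0.785 to 1.07. Cdkn1a, the p53 target that encodes the p21 inhibitor of the cell cycle, was listed at 109 and 101 FPKM in wildtype mice, at 40.5 and 41.4 FPKM in heterozygous mice and at 6.70 and 6.17 FPKM in homozygous mice, in the order of the labelled genotypes. Homozygous mouse 47 stood apart in Pbsn, the androgen-dependent probasin gene of prostate luminal cells, at 257 FPKM against 7329 to 11512 FPKM in the other 5 mice, while the luminal keratin genes Krt8 and Krt18 were at 179 and 367 FPKM there, within the range of the other mice. Wildtype mouse 39 stood apart in seminal vesicle markers, with a sum of 3443 FPKM against 47477 in mouse 41, and in mouse 47 Svs2, Svs4 and Svs5 were at 0 and Pate4 alone made up the sum of 16862 FPKM. Svs2 was also at 0 in homozygous mouse 49, where Svs4 and Svs5 were at 6819 and 23192 FPKM. The 7 skeletal muscle markers summed to 1319 and 1988 FPKM in wildtype mice and to between 3773 and 4567 FPKM in the other 4 mice. Heterozygous mice 37 and 40 were close in Pbsn (8360 and 8174 FPKM). They were also close in seminal vesicle (55290 and 55025 FPKM), skeletal muscle (3773 and 3980) and basal epithelium markers (133 and 135). This pair was less close in smooth muscle (1718 and 1443 FPKM), macrophage (82.0 and 64.5) and adipocyte markers (189 and 253). In bulk tissue, fewer cells of a type and less RNA per cell cannot be told apart.

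Arntl encodes the shared partner of the activating pairs and is listed under ENSMUSG00000055116 at chr7:113207465-113314126 of GRCm38, on the plus strand. Its level was 3.07 and 3.95 FPKM in wildtype mice 39 and 41, 2.90 and 5.22 FPKM in heterozygous mice 37 and 40, and 5.10 and 4.40 FPKM in homozygous mice 47 and 49. Both homozygous values lay above both wildtype values, while the heterozygous pair held the lowest and the highest value of the 6. Clock (ENSMUSG00000029238, chr5:76209868-76304792, minus strand) encodes the usual partner of ARNTL, and was the steadiest member. Its level was 5.42 and 5.32 FPKM in wildtype, 4.88 and 5.92 FPKM in heterozygous and 5.23 and 6.02 FPKM in homozygous mice, and the groups overlapped. Npas2 (ENSMUSG00000026077, chr1:39193731-39363236, plus strand) encodes an alternative partner that can stand in for CLOCK. It was at 3.15 and 3.72 FPKM in wildtype, 2.40 and 3.34 FPKM in heterozygous and 3.70 and 2.78 FPKM in homozygous mice, again with overlap and again lowest in mouse 37.

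The Per genes encode the repressors that pair with CRY proteins. Per1 (ENSMUSG00000020893, chr11:69095217-69109960, plus strand) was at 13.2 and 15.9 FPKM in wildtype, 18.7 and 12.7 FPKM in heterozygous and 10.4 and 12.5 FPKM in homozygous mice. Both homozygous values were below those of the other 4 mice. Per2 (ENSMUSG00000055866, chr1:91415982-91459324, minus strand) was at 3.27 and 2.45 FPKM in wildtype, 3.38 and 2.18 FPKM in heterozygous and 1.99 and 2.64 FPKM in homozygous mice, so that each genotype held a high and a low mouse. Per3 (ENSMUSG00000028957, chr4:151003652-151044665, minus strand) was at 10.7 and 9.57 FPKM in wildtype, 12.4 and 9.52 FPKM in heterozygous and 8.03 and 11.7 FPKM in homozygous mice. All 3 Per genes were highest in mouse 37 and lowest in mouse 47. Part of Per3 overlaps Camta1 on the same strand, and the sources used here do not state how shared reads were assigned.

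Cry1 (ENSMUSG00000020038, chr10:85131700-85185064, minus strand) encodes a cryptochrome, the repressor partner of the PER proteins whose transcript peaks late. Its level was 5.78 and 3.74 FPKM in wildtype, 3.33 and 5.04 FPKM in heterozygous and 6.55 and 4.32 FPKM in homozygous mice. It was lowest in mouse 37 and highest in mouse 47, the reverse of the Per genes, and the groups overlapped. On the log2(FPKM + 0.1) scale the difference in Cry1 was 0.61 for the wildtype pair, 0.59 for the heterozygous pair and 0.59 for the homozygous pair, just past the 1.5-fold limit used for the pairs, and with a pseudocount of 1 no member reached it in the homozygous pair.

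Nr1d1 (ENSMUSG00000020889, chr11:98767932-98775333, minus strand) encodes REV-ERB alpha, a repressor of Arntl. It was at 17.6 and 26.0 FPKM in wildtype, 32.0 and 21.1 FPKM in heterozygous and 23.3 and 30.0 FPKM in homozygous mice, with a high and a low mouse in each genotype. It overlaps Thra by 1075 bases on the opposite strand. The libraries were stranded, but the strand setting of the counting is not given in the sources used here, and without it the reads of the overlap cannot be told apart. Thra itself was at 25.4 and 23.6 FPKM in wildtype, 30.6 and 34.7 FPKM in heterozygous and 33.4 and 31.0 FPKM in homozygous mice. Within each genotype the mouse with more Thra held less Nr1d1. Between genotypes the means of both genes were higher in heterozygous and homozygous mice than in wildtype mice. The part of the overlap in these values was not tested. Nr1d2 (ENSMUSG00000021775, chr14:18204054-18239127, minus strand) encodes the related REV-ERB beta. Its level was 11.6 and 14.7 FPKM in wildtype, 13.1 and 12.5 FPKM in heterozygous and 12.8 and 17.7 FPKM in homozygous mice, and it differed least of the members within the heterozygous pair.

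Dbp (ENSMUSG00000059824, chr7:45705088-45710203, plus strand, with Sphk2 overlapping on the opposite strand) encodes a transcription factor that carries the rhythm to D-box genes. It was at 15.2 and 24.7 FPKM in wildtype, 32.5 and 13.5 FPKM in heterozygous and 17.0 and 23.8 FPKM in homozygous mice. The heterozygous pair held both extremes, and the other 4 mice fell between them. Over the 6 mice Dbp spanned 1.26 on the log2(FPKM + 0.1) scale, a range reached by 15.1% of the tested genes, and Cry1 spanned 0.96, reached by 23.7%. Clock spanned 0.30, reached by 87.3% of genes, where the median range of all tested genes was 0.58.

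**Figure D1:**
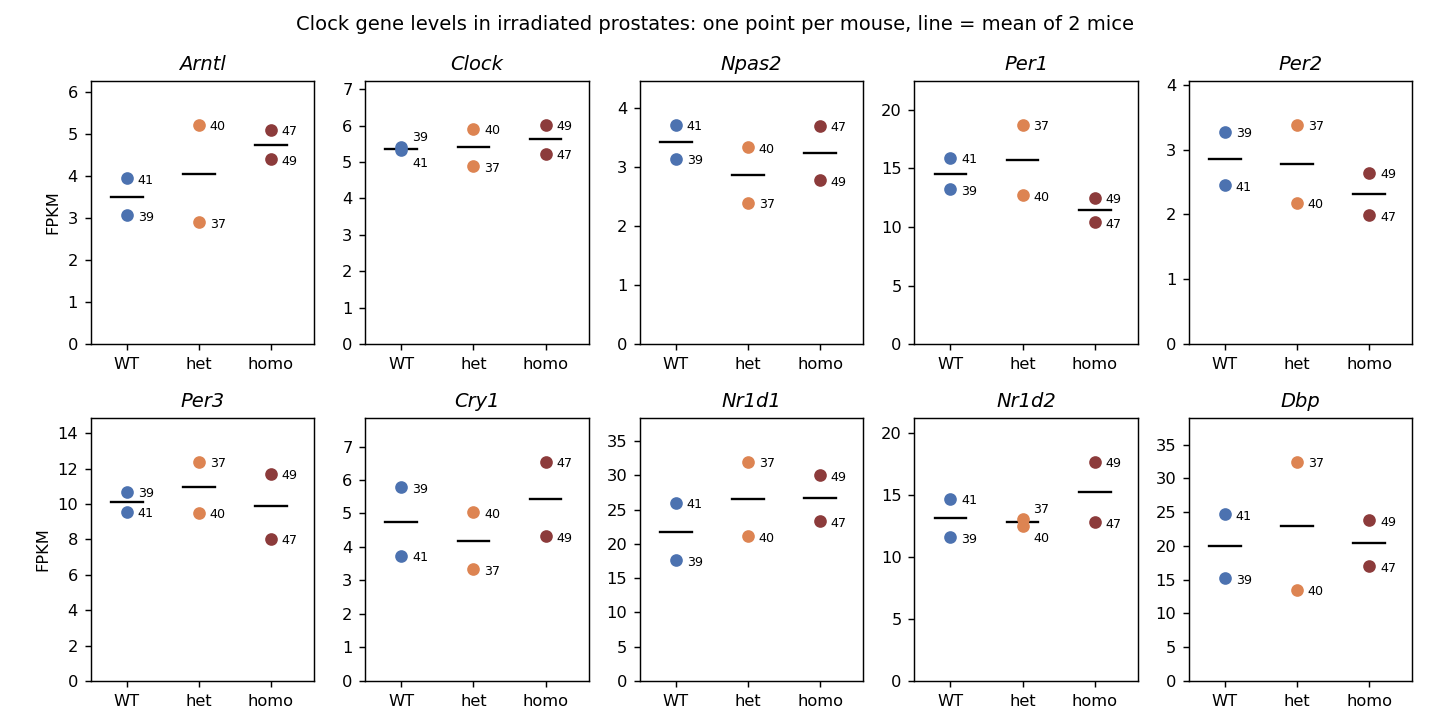
Level of each clock gene in FPKM (vertical axes, from 0), with 1 point per mouse labelled by its number, and a line at the mean of the 2 mice of each genotype (WT, wildtype; het, heterozygous; homo, homozygous). On the log2 scale the largest gap within a genotype exceeds the largest gap between the means for all 10 genes, as for 61.1% of all tested genes. The excess is clearest for Dbp, where mice 37 and 40 lie at 32.5 and 13.5 FPKM.

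Whether the genotypes differed was tested on log2(FPKM + 0.1) with limma over all 13818 genes, with Benjamini-Hochberg adjustment. The moderated F-test over the 3 genotypes called 0 of the 10 clock genes, where 0.101% of all genes passed an adjusted p of 0.05, and the adjusted p-values of the members ran from 0.591 to 0.985. Without adjustment, 11.5% of all genes and 0 members passed. On pairs of genotypes the adjusted test again called 0 members, beside 0% of all genes for heterozygous against wildtype mice, 0.384% for homozygous against wildtype and 0.0145% for homozygous against heterozygous. At an unadjusted p under 0.05 it also passed 0 members, beside 6.87%, 18.0% and 6.39% of all genes.

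Every interval of a member included 0. Between homozygous and wildtype mice, the log2 fold change was 0.44 for Arntl (standard error 0.31, 95% interval -0.32 to 1.19, limma adjusted p = 0.492) and -0.35 for Per1 (standard error 0.22, 95% interval -0.90 to 0.20, limma adjusted p = 0.454). These were the 2 members whose groups did not overlap in this comparison, beside 50.0% of all tested genes. Without mouse 47, the library low in Pbsn, the values were 0.33 for Arntl and -0.22 for Per1. Arntl was at 0.26 without mouse 39 and Per1 at -0.21 without mouse 41. The remaining 8 members lay between -0.29 (Per2) and 0.30 (Nr1d1), but without mouse 39 these values were -0.09 for Per2 and 0.02 for Nr1d1, and without mouse 47 they were -0.10 and 0.49. Dbp was at 0.05 with a 95% interval of -1.08 to 1.18.

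Between heterozygous and wildtype mice the members ran from -0.26 (Npas2, standard error 0.25) to 0.28 (Nr1d1, standard error 0.28), with a median of 0.05 beside -0.01 over all tested genes. Without mouse 37 these ends were -0.03 for Npas2 and -0.02 for Nr1d1, and without mouse 40 they were -0.49 and 0.58. No member had groups that did not overlap, against 39.0% of all tested genes. The interval of Dbp was again wide, from -1.02 to 1.24 around 0.11. Between homozygous and heterozygous mice, Per1 had the largest change of the members, -0.43 (standard error 0.22, 95% interval -0.98 to 0.11, limma adjusted p = 0.707), and was the 1 member without overlap, beside 42.1% of all genes. Without mouse 37 this value of Per1 was -0.16 and without mouse 40 it was -0.71. Cry1 followed at 0.37 (standard error 0.33, 95% interval -0.45 to 1.19), and stood at 0.08 without mouse 37 and at 0.07 without mouse 47, against 0.66 without mouse 40 or mouse 49. With 2 mice per genotype an exact test of 1 gene between a pair of genotypes cannot give a two-sided p below 0.333. The intervals leave room for changes of over 1 on the log2 scale in Arntl, Per2, Cry1 and Dbp, and the sign of 22 of the 30 member comparisons turned when some mouse was left out.

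**Figure D2:**
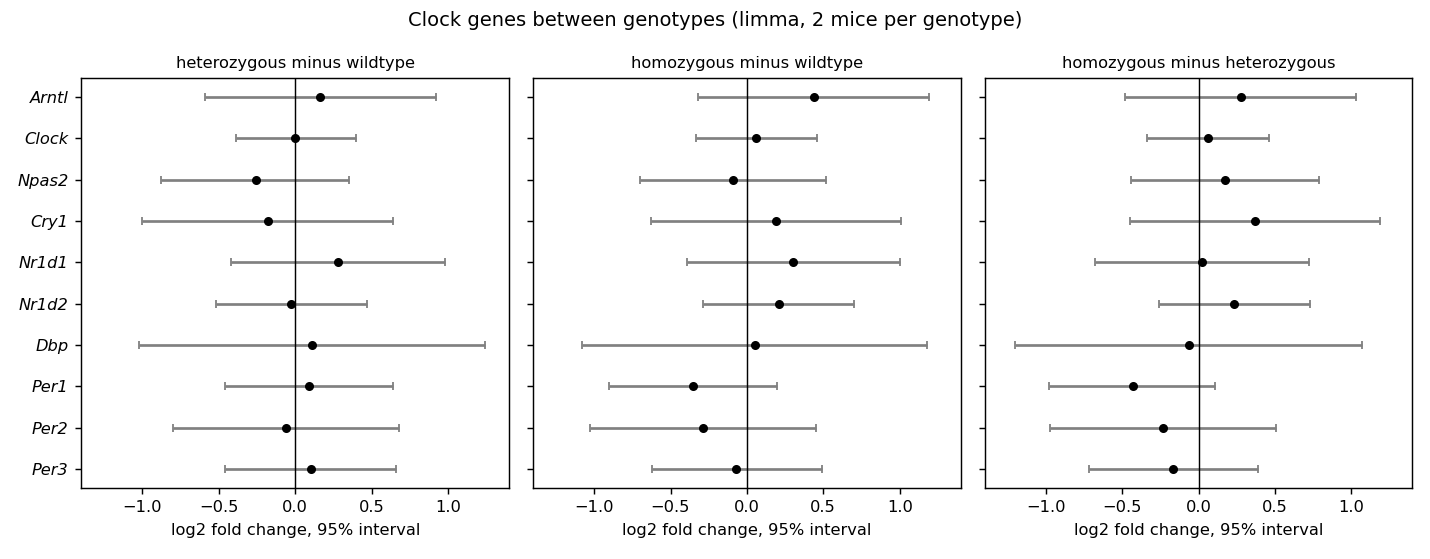
Log2 fold change of each clock gene on the log2(FPKM + 0.1) scale (horizontal axes) for the 3 pairs of genotypes, as points with 95% intervals from limma. Every interval includes 0, and the widest are those of Dbp, from -1.02 to 1.24 in the left panel.

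Differences inside a genotype were then set beside those of all tested genes. In the heterozygous pair, 5 of the 10 members (Arntl, Per2, Cry1, Nr1d1 and Dbp) were at least 1.5-fold apart, against 6.56% of all tested genes. The median size of the difference was 0.57 on the log2 scale for the members and 0.19 for all genes. The 2.39-fold difference of Dbp was matched or exceeded by 1.34% of genes and the 1.77-fold difference of Arntl by 3.04%. Per2, Nr1d1, Cry1 and Per1 followed at 0.61, 0.60, 0.59 and 0.55 on the log2 scale, while Clock stood at 0.27 and Nr1d2 at 0.06. Several of these lay close to 1.5-fold. With a pseudocount of 1 the count was 2, with quantile normalization 3 and with median scaling 4. The members act on one another in a loop, so they are not independent observations of a mouse.

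The wildtype pair had 2 members at least 1.5-fold apart, Dbp at 1.62-fold and Cry1 at 1.53-fold, against 14.8% of all tested genes. Nr1d1 was close behind at 1.47-fold, and Clock differed by 0.03 on the log2 scale. The median was 0.35 for the members and 0.21 for all genes. In the homozygous pair only Cry1, at 1.51-fold, reached the limit, against 16.0% of all genes, and the median was 0.39 for the members and 0.22 for all genes. Per3 and Dbp differed by 0.53 and 0.49 on the log2 scale there. These pairs include mouse 39, low in seminal vesicle markers, and mouse 47, low in Pbsn and with 3 of 4 seminal vesicle markers at 0. In every genotype the members' median was larger than that of all genes.

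**Figure D3:**
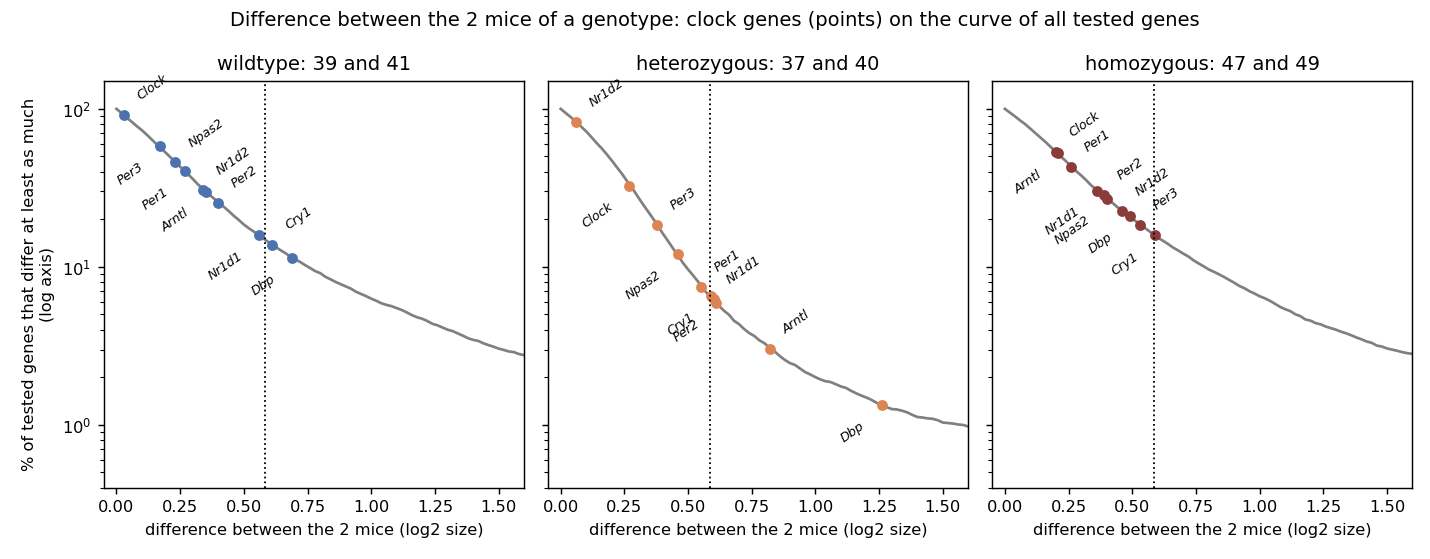
Size of the difference between the 2 mice of a genotype on the log2(FPKM + 0.1) scale (horizontal axes) against the percentage of tested genes that differ at least as much (vertical log axis), with the curve of all 13818 genes, the clock genes as points on it and a dotted line at 1.5-fold. In the heterozygous panel 5 genes lie at or beyond the line, with Dbp at 1.26 and Arntl at 0.82.

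The comparison of both kinds of difference gave the same order in every member. The largest difference within a genotype exceeded the largest difference between genotype means in 10 of 10 members, against 61.1% of all tested genes. For Dbp the values were 1.26 within and 0.11 between, for Arntl 0.82 and 0.44, and for Cry1 0.61 and 0.37. Per1 came closest, with 0.55 within and 0.43 between.

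The direction of the differences was read by grouping the members into the 3 activators and an output arm of 6 genes (Nr1d1, Nr1d2, Dbp, Per1, Per2 and Per3), with Cry1 apart because its transcript peaks later. The mouse named first in each pair is the one with the higher mean of these 6 genes. Counts of higher output genes therefore lean upward by construction. In heterozygous mouse 37, 6 of 6 genes of the output arm were higher, 3 of 3 activators lower and Cry1 lower than in mouse 40. In homozygous mouse 49, 6 of 6 output genes were higher than in mouse 47, Cry1 was lower, and 2 of 3 activators were lower, with Clock as the exception. The wildtype pair did not divide in this way. Mouse 41 had 4 of 6 output genes higher than mouse 39, with Per2 and Per3 lower, and Cry1 and Clock were lower while Arntl and Npas2 were higher.

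Each mouse was placed by the mean log2(FPKM + 0.1) of the activators minus that of the output arm, in which any scaling of a whole library largely cancels. This difference was -2.16 in heterozygous mouse 37 and -1.07 in heterozygous mouse 40. It was -1.48 and -1.51 in wildtype mice 39 and 41, and -1.06 and -1.61 in homozygous mice 47 and 49. The mice of the heterozygous pair were the farthest apart, both wildtype mice lay between them, and the homozygous pair spanned the wildtype values, so the order did not follow genotype.

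The ratio of Dbp to Arntl, which uses 1 gene of each arm, gave a similar picture. It was 11.2 in mouse 37 and 2.59 in mouse 40, 4.97 and 6.27 in wildtype mice 39 and 41, and 3.32 and 5.40 in homozygous mice 47 and 49. The ratio of Nr1d1 to Cry1 was 9.62 and 4.19 in the heterozygous pair, 3.05 and 6.95 in the wildtype pair, and 3.55 and 6.94 in the homozygous pair. By this ratio the wildtype mice also stood apart, with mouse 41 near homozygous mouse 49 and mouse 39 near homozygous mouse 47.

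**Figure D4:**
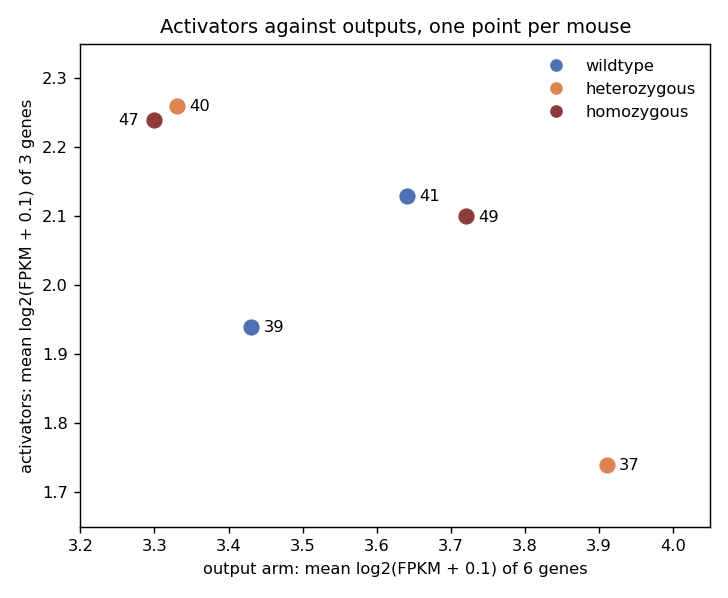
Mean log2(FPKM + 0.1) of the 6 output genes (horizontal axis) against that of the 3 activators (vertical axis), 1 point per mouse coloured by genotype, with axes that do not start at 0. Mouse 37 lies at the lower right (3.91 and 1.74), mice 40 and 47 lie together at the upper left (3.33 and 2.26, 3.30 and 2.24), and the genotypes do not form separate groups.

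Seen mouse by mouse, heterozygous mouse 37 was the most distinct. It had the highest value of the 6 mice in 5 members (Per1, Per2, Per3, Nr1d1 and Dbp) and the lowest in 4 (Arntl, Clock, Npas2 and Cry1). Heterozygous mouse 40 had the highest Arntl and the lowest Dbp. Homozygous mouse 47 resembled it, with the highest Cry1 and the lowest values of all 3 Per genes, although it was also the library low in Pbsn with 3 of 4 seminal vesicle markers at 0, and the part of these in its clock gene values was not tested. Homozygous mouse 49 had the highest Clock and Nr1d2, wildtype mouse 41 had the highest Npas2 and wildtype mouse 39 the lowest Nr1d1 and Nr1d2. On the centred log2 scale mouse 39 was low in Nr1d1 (-0.47), Dbp (-0.40) and Arntl (-0.38) and high in Per2 (0.32) and Cry1 (0.30), so activators and outputs did not oppose each other there.

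**Figure D5:**
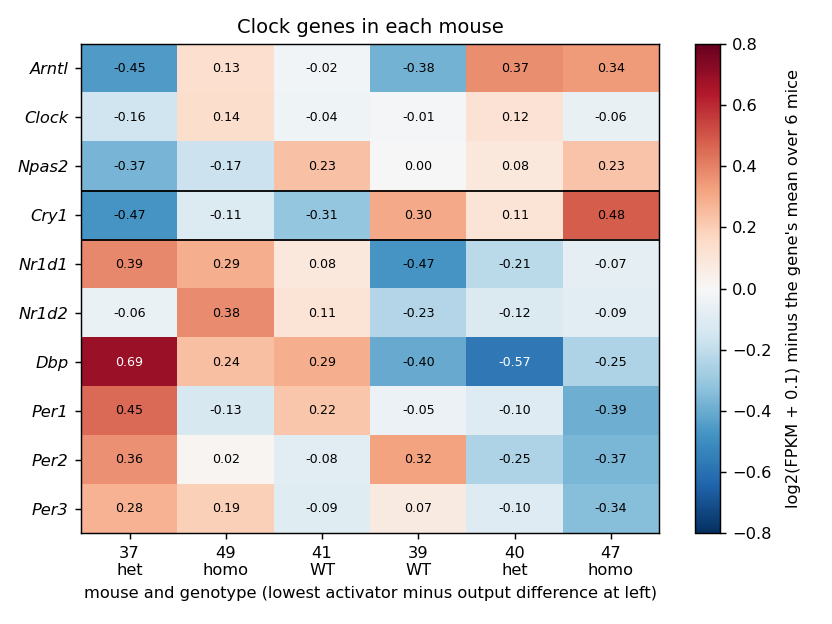
Log2(FPKM + 0.1) of each clock gene minus its mean over the 6 mice (colour and printed value), with genes in rows, activators above and the output arm below the lines around Cry1, and mice in columns in order of the activator minus output difference. Mouse 37 at the left runs from -0.47 in Cry1 to 0.69 in Dbp, and mice 40 and 47 at the right show mostly opposite colours.

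Because the labels give no hour of dissection, these levels cannot be placed at a time of day. Between genotypes, the hour and the genotype cannot be told apart, while the mice of a pair share their labelled genotype, and the part of the hour or of the response to irradiation in their differences was not tested. The time from irradiation to dissection is labelled as 6 h for every mouse.

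Other genes tied to the clock were counted from a list of 22, of which 20 were tested, and 0 passed the adjusted test in any comparison. At an unadjusted p under 0.05, 1 passed between heterozygous and wildtype mice, beside 6.87% of all genes, and 0 between homozygous and heterozygous, beside 6.39%. Between homozygous and wildtype mice 5 passed, 3 of them higher and 2 lower (5 of 20 genes, beside 18.0% of all genes). The higher ones were Hlf, Bhlhe40 and Nampt and the lower ones Wee1 and Fbxw11. Hlf, which encodes a D-box factor related to DBP, was at 2.74 and 4.49 FPKM in wildtype, 4.75 and 5.11 FPKM in heterozygous and 7.05 and 6.24 FPKM in homozygous mice. The log2 fold change of Hlf between homozygous and wildtype mice was 0.90 (standard error 0.25, limma adjusted p = 0.185). Its wildtype and homozygous groups did not overlap, as was so for 50.0% of all tested genes. Wee1, a kinase that restrains entry into mitosis, was at 12.0 and 16.0 FPKM in wildtype, 12.3 and 8.70 FPKM in heterozygous and 5.09 and 9.96 FPKM in homozygous mice, with a log2 fold change of -0.95 (standard error 0.36, limma adjusted p = 0.255).

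The list was also read within genotypes. In the heterozygous pair 2 of the 20 genes were at least 1.5-fold apart, Ciart and Usp2, beside 6.56% of all genes. In the wildtype pair 3 of 20 were (Ciart, Hlf and Nfil3), beside 14.8%, and in the homozygous pair 1 of 20 (Wee1), beside 16.0%, so these counts stood near the background or below it. Usp2, a deubiquitinase gene under clock control, was at 20.8 FPKM in mouse 37 and 10.1 FPKM in mouse 40, and between 8.86 and 14.7 FPKM in the other 4 mice. Ciart, a repressor of the activating pairs, was at 2.47 FPKM in mouse 37 and 1.21 FPKM in mouse 40, and at 1.05 and 2.50 FPKM in wildtype mice 39 and 41. Both were higher in mouse 37 than in mouse 40, while Hlf was at 4.75 FPKM in mouse 37 and 5.11 FPKM in mouse 40. Nfil3, which competes with DBP at D-boxes, was at 35.8 FPKM in mouse 39 and between 13.3 and 23.2 FPKM in the other 5 mice. Over the 20 genes the median size was 0.18 on the log2 scale in the heterozygous pair, beside 0.19 for all tested genes.

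Glucocorticoids and body temperature also act on clock genes, so short lists for both were read beside them. Of 9 glucocorticoid-responsive genes, which include Per1, 0 passed the adjusted test and 3 passed the unadjusted one between homozygous and wildtype mice, beside 18.0% of all genes. They went in opposite directions, with log2 fold changes of 0.51 for Tsc22d3, -1.67 for Mt1 and -1.47 for Mt2. Between homozygous and heterozygous mice 2 passed the unadjusted test, Mt1 at -1.54 and Mt2 at -1.29, beside 6.39% of all genes, and between heterozygous and wildtype mice 0. Mt1, a metallothionein, was at 3077 and 4878 FPKM in wildtype, 4629 and 2705 FPKM in heterozygous and 826 and 1792 FPKM in homozygous mice. It was higher in mice 37, 41 and 49 than in the other mouse of the same genotype, as were Per1, Nr1d1 and Dbp, and its part in the clock gene values was not tested. Fkbp5, which encodes a chaperone of the glucocorticoid receptor, was at 59.8 and 29.3 FPKM in wildtype, 45.0 and 37.1 FPKM in heterozygous and 55.6 and 56.7 FPKM in homozygous mice. In the wildtype pair 5 of the 9 genes were at least 1.5-fold apart, beside 14.8% of all genes, and in each of the other pairs 2 of 9, beside 6.56% in the heterozygous and 16.0% in the homozygous pair. Of 6 temperature-responsive genes 0 passed the adjusted test and 0 were 1.5-fold apart within any genotype. At an unadjusted p under 0.05, 2 passed between heterozygous and wildtype mice (Hsph1 at 0.54 and Rbm3 at -0.42 on the log2 scale, beside 6.87% of all genes), 0 between homozygous and wildtype, and 1 between homozygous and heterozygous mice (Hsph1 at -0.88, beside 6.39% of all genes). Hsph1, a heat shock protein gene, was at 17.8 and 17.9 FPKM in wildtype mice, 30.7 and 22.1 FPKM in heterozygous mice and 14.3 and 14.0 FPKM in homozygous mice. Its groups did not overlap in any pair of genotypes, and mouse 37 was the highest. Of all tested genes, 39.0% did not overlap between heterozygous and wildtype mice. The share was 50.0% between homozygous and wildtype and 42.1% between homozygous and heterozygous mice. Cirbp, a cold-inducible RNA binding protein gene, ranged from 86.9 to 110 FPKM over the mice.

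The genes whose pattern was most like that of Dbp and Arntl were found from the root mean square difference of centred log2(FPKM + 0.1) over the 6 mice, among 12722 genes. Nearest to Dbp were Cdt1, Alas2, Ncf4 and Nr1d1 at 0.22 and B3gnt9 at 0.23, where Dbp itself varied by 0.44 about its mean. By likeness to Dbp, Per1 ranked at 88, Per3 at 576, Nr1d2 at 1139 and Per2 at 1672 of these genes. Clock ranked at 7486, Npas2 at 10347, Arntl at 11198 and Cry1 at 11771. Nearest to Arntl were Itgb6 at 0.04, Ift80, AW551984 and Zfp626 at 0.10 and Zmym6 at 0.11, where Arntl varied by 0.32. By likeness to Arntl, Npas2 ranked at 1008 (0.26), Clock at 1367 (0.27), Nr1d2 at 3705 and Cry1 at 3929 (0.34 each). A gene that did not vary at all would score 0.32 against Arntl and 0.44 against Dbp, so a middle rank need not mean likeness. Nr1d1 ranked at 9289, Per3 at 10076, Per1 at 11046, Per2 at 11349 and Dbp at 11783. With 6 mice and so many genes, close patterns arise in many genes that are not clock genes, and nothing further is read from these names.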

How the data were processed

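RNA of 6 prostates was measured, 2 per genotype, and genotypes were taken from the labels. The authors extracted RNA from snap-frozen tissue, made stranded mRNA libraries, aligned read pairs to mm10 (GRCm38) with HISAT and quantified genes with Cufflinks and Cuffnorm. They deposited gene-level FPKM, which are scaled for gene length and mapped fragments. Tool versions and the strand setting of quantification are not given in the sources used here. No fragment counts stand beside them, so a count test was not used and the counting error of a value is unknown.

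Members were matched by gene symbol. Positions are from GENCODE M21, which holds 47219 of the 47719 identifiers. All identifiers were kept, including those of the 124 symbols shared by several, and the symbol of each member belonged to a single identifier. Tested were genes averaging 1 FPKM or more over the mice, on log2(FPKM + 0.1), a scale that understates the change of low genes, with limma 3.58.1 in R 4.3.3 (intensity trend, prior degrees of freedom 2.77 beside 3 residual). All genotypes shared 1 estimate of the spread, adjustment ran over all tested genes, and the threshold was 0.05. The labels do not say whether the mice were littermates, and p-values measure the spread between these mice. The same code was first tested on simulated data in which the changed genes were known. Python 3.11.15 with numpy 2.4.6, pandas 2.3.3 and matplotlib 3.10.9 was used for the rest.

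The members and lists were chosen with earlier results of these data known. Named were all 10 members, the other clock genes with the 5 largest ranges over the mice or an unadjusted p under 0.05, examples of the side lists, the 5 genes nearest to Dbp and to Arntl, and Trp53, Cdkn1a and Thra as checks. Those named for an unadjusted p, the examples of the side lists and Thra were chosen after their values were seen. Trp53 lay between 17.3 and 21.4 FPKM in all mice, and gene-level FPKM does not separate its alleles. 1 marker of the luminal list, and with it the sum of that list, is not reported here. Of the other marker lists, basal epithelium summed to 124 to 186 FPKM, smooth muscle to 1344 to 2070, adipocyte to 182 to 373, macrophage to 33.9 to 82.0 and lymphocyte to 2.22 to 4.07. Alternatives were pseudocounts of 1 and 0.01, no filter or a mean of 5 FPKM, scaling by quantiles or by the median, a prior without trend, separate F-tests per gene and leaving out each mouse.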

Additional observations from a re-analysis of the deposited data

How the results depend on the processing

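Under every alternative tried 0 members were called, but few genes were called at all. Over all tested genes the calls numbered 0 to 2 for heterozygous against wildtype mice, 0 to 54 for homozygous against heterozygous, 4 to 128 for homozygous against wildtype and 0 to 17 for the 3 genotypes together. The F-test on each gene alone called 0 of 19130 genes, so it says nothing about the members. A mean FPKM of at least 5 left 6 members to test. Without mouse 40, Per1 passed the unadjusted threshold between homozygous and heterozygous mice, with a log2 fold change of -0.71 and a limma adjusted p of 0.646. Of 198 member fold changes under the other settings, 195 kept their sign and 3 reversed. These were Clock in heterozygous against wildtype mice, at -0.02 with quantile normalization and -0.00 with median scaling, and Dbp in homozygous against heterozygous mice, at 0.02 with quantile normalization. The cause was not tested.

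Leaving out 1 mouse leaves its genotype with 1, whose spread is taken from the other groups. The sign then turned in 38 of 180 values, in 22 of the 30 comparisons, with adjusted p-values of 0.412 or more in all 180. The log2 fold changes ran over these ranges in heterozygous against wildtype mice: Arntl (-0.25 to 0.57), Clock (-0.14 to 0.14), Per1 (-0.19 to 0.36), Per2 (-0.37 to 0.25), Per3 (-0.09 to 0.29), Cry1 (-0.49 to 0.13), Nr1d1 (-0.02 to 0.58), Nr1d2 (-0.20 to 0.15) and Dbp (-0.52 to 0.74). In homozygous against wildtype mice the ranges were Clock (-0.04 to 0.16), Npas2 (-0.29 to 0.11), Per3 (-0.33 to 0.20), Cry1 (-0.12 to 0.50), Nr1d2 (-0.02 to 0.44) and Dbp (-0.30 to 0.40). In homozygous against heterozygous mice they were Arntl (-0.14 to 0.69), Clock (-0.08 to 0.20), Npas2 (-0.06 to 0.40), Per2 (-0.54 to 0.07), Per3 (-0.43 to 0.10), Nr1d1 (-0.28 to 0.32) and Dbp (-0.69 to 0.56). The sign did not turn for Npas2 in heterozygous against wildtype mice (-0.49 to -0.03), Arntl in homozygous against wildtype mice (0.26 to 0.61), Per1 in homozygous against wildtype mice (-0.48 to -0.21), Per2 in homozygous against wildtype mice (-0.49 to -0.09), Nr1d1 in homozygous against wildtype mice (0.02 to 0.58), Per1 in homozygous against heterozygous mice (-0.71 to -0.16), Cry1 in homozygous against heterozygous mice (0.07 to 0.66) and Nr1d2 in homozygous against heterozygous mice (0.00 to 0.46), but all 8 of these values moved by more than 1.5 times.

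With a pseudocount of 1, members at least 1.5-fold apart numbered 1 in the wildtype pair, 2 in the heterozygous pair and 0 in the homozygous pair. In the heterozygous pair they numbered 3 with quantile normalization and 4 with median scaling. A larger pseudocount shrinks the differences of low genes by construction. The activator minus output difference moved to -1.31 in mouse 39 and -1.38 in mouse 41 with a pseudocount of 1, and to -1.43 and -1.46 with quantile normalization, each by more than the SD of 0.02 between these mice. The order of the mice was 37, 49, 41, 39, 40, 47 in every setting except a pseudocount of 1, where 47 came before 40. No paired analysis was possible because the replicate numbers are animal numbers that no genotypes share. With 2 mice per genotype and no fragment counts, member intervals reached from -1.20 to 1.24 on the log2 scale, and changes inside an interval could not be told from the spread between mice.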
